A study of Mus musculus with 77 samples.

Results

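The genes described here encode the proteins of oxidative phosphorylation, the respiratory chain of the inner mitochondrial membrane and the ATP synthase it drives. They were taken by symbol, as all Nduf (a, b, c, s and v series), Sdha to Sdhd, Uqcr, Cox4 to Cox8 and Atp5 genes, without pseudogenes, that had a probe set listed with that gene alone. This gave 81 of the 19938 genes tested, with 33 in complex I, 4 in complex II, 8 in complex III, 19 in complex IV (Ndufa4 and Ndufa4l2 are counted there) and 17 in complex V. Genes of these families without a probe set listed for them alone were left out, among them Cox7c, Ndufb4, Ndufb4b and Ndufs5-ps, which were listed only on probe sets of several genes. No filter on low signal was applied, and all 81 were tested in every comparison.

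The study profiled neonatal mouse testes on 77 single-colour arrays. RiboTag mice carry a ribosomal protein gene that gains an epitope tag after Cre recombination, so that immunoprecipitation (IP) recovers polysome-associated RNA of the Cre-expressing cells, and total RNA stands for the whole testis. Stra8-Cre:RiboTag (FVB/N, 16 IP and 23 total arrays) and Ngn3-Cre:RiboTag (C57BL/6, 4 IP and 4 total arrays) mark germ cells, and Amh-Cre:RiboTag (FVB/N, 16 IP and 14 total arrays) marks Sertoli cells, the somatic cells that nurse them. All animals, those at time 0 included, had been given WIN,18446 (BDAD), an inhibitor of retinoic acid synthesis, for 9 days. Time 0 animals were then killed and the others injected with retinoic acid (RA). For the Ngn3 line the times are 0 and 4h; the other lines run on through 12h, 24h, 48h, 4d and 6d to 8d, without Amh total 4h, which was not analysed. Each group has 2 arrays, except that Stra8 total has 3 at 4h and 4 at each of 0, 24h and 48h. Age and any pooling of testes are not stated in the labels. Every time in a line and fraction was set against the same time 0 arrays, so those comparisons share their controls. No vehicle group was analysed, so RA, the injection, age and the end of BDAD cannot be told apart, nor can strain and line for Ngn3.

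Complex I takes electrons from NADH and complex II (succinate dehydrogenase) from succinate, complex III passes them to cytochrome c, and complex IV (cytochrome c oxidase) to oxygen. The proton gradient so built drives complex V. Several complex IV subunits exist as paralog pairs, with a form present in most tissues and another typical of heart and skeletal muscle (Cox7a1, Cox6a2, Cox8b) or of the testis (Cox6b2, Cox7b2, Cox8c). In the adult testis Sertoli cells are known for glycolysis and lactate export, while meiotic and later germ cells rely more on mitochondrial respiration.

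The IP fractions held the RNA their labels name. All 8 germ cell markers were higher in Stra8 IP than in Amh IP RNA (median difference 3.39 on the log2 scale) and all 8 Sertoli cell markers lower (median -2.92). Markers of the other cell type were not constant. The mean log2 level of the Sertoli markers ran from 8.74 to 10.97 over the Stra8 IP arrays. That of the germ cell markers ran from 7.87 to 9.24 over the Amh IP arrays. Whether this is carry-over, and what part it has in the results below, was not tested. In bulk RNA of this kind, fewer cells of a type and less RNA per cell cannot be told apart. The Amh IP arrays labelled 4h stood apart from the time course around them, because over all genes each lay nearest to the 48h mean and next nearest to the 6d mean. Of the pair labelled 4d, replicate 1 lay nearest to the 0 mean and replicate 2 to the 48h mean. The counts for each contrast that includes these 4 arrays are also given without them, apart from the time labelled 4h set against 0.

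Respiratory chain genes are among the strongest signals on these arrays. Their mean log2 intensities had a median of 11.08, at the 89.7th percentile of all genes tested, and 39 of the 81 lay above the 90th. Averaged over all members, Stra8 IP RNA stood at 10.76 and 10.68 on the 2 arrays of time 0, at 11.11 and 10.93 at 6d, and at 10.93 and 10.94 at 8d. Amh IP RNA began higher, at 10.87 on both arrays of time 0, and stood at 10.7 and 10.8 at 6d and at 10.68 and 10.71 at 8d. The arrays of the IP fractions thus do not overlap at 0, 6d or 8d, with Amh IP higher at 0 and Stra8 IP higher at 6d and 8d. These gaps are small and were not tested. Between replicates the members' median differed by 0.13 in Stra8 IP at 0, 0.2 in Stra8 IP at 6d and 0.19 in Amh IP at 6d. Centring each array on its median moved Stra8 IP minus Amh IP, as a mean over all times, by -0.1 for every gene.

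**Figure D1:**
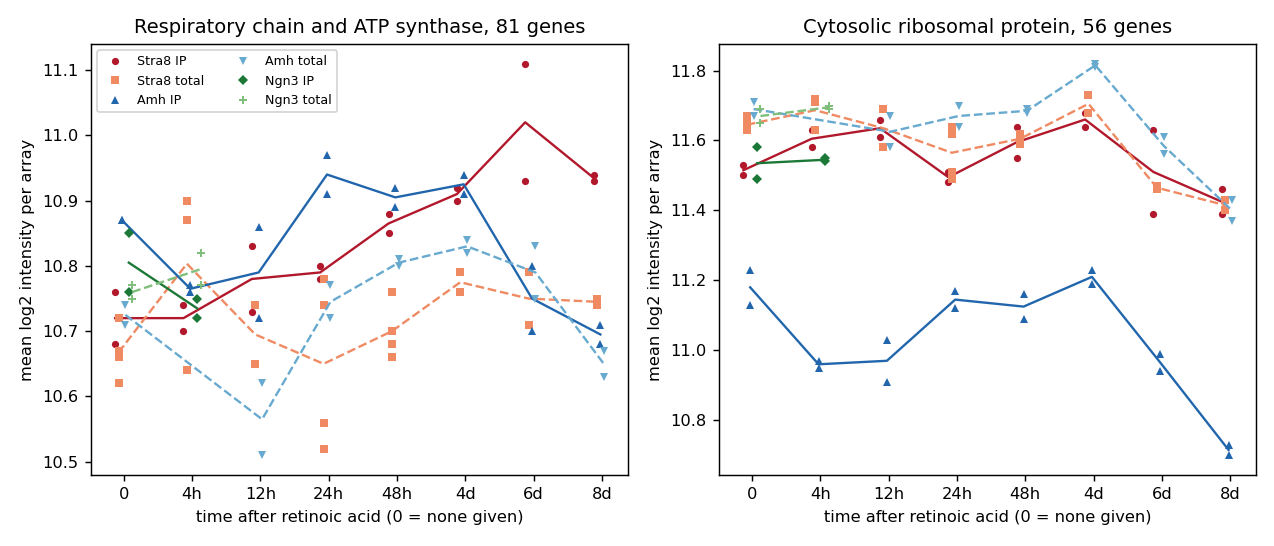
Mean log2 intensity of the 81 respiratory chain and ATP synthase genes (left) and of 56 cytosolic ribosomal protein genes (right) on each array, against time after RA, with lines through group means. In Stra8 IP the left-hand mean goes from 10.76 and 10.68 at 0 to 10.93 and 10.94 at 8d, and in Amh IP from 10.87 on both arrays to 10.68 and 10.71. The times are spaced evenly, not to scale.

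The first contrast, IP minus total in Stra8 mice, sets germ cell polysomes against the whole testis. Among the members, 47 were higher and 21 lower in IP RNA past the limma test at any fold (adjusted p under 0.05), against 71.3% of all genes past it in either direction, and the median difference was 0.13 against 0.04 over all genes. Only 2 members were called, meaning that they also differed at least 2-fold, against 9.21% of all genes. Both were complex IV isoforms. Cox7b2, the testis form of subunit 7b, was higher by 1.11 ± 0.06 (SE, adjusted p = 1.2e-21). Cox7a1, the muscle form of subunit 7a, was lower by -1.19 ± 0.05 (adjusted p = 8.33e-26). Over the 16 IP arrays Cox7b2 ran from 8.17 to 9.79 (median 8.91), and over the 23 total arrays from 7.3 to 8.8 (median 7.73). These ranges overlap, with the highest total arrays at 8d (8.8 and 8.43) and the lowest IP arrays at 4d (8.17 and 8.48).

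Genes of complexes I, II and III had smaller differences in the same contrast. Ndufs1, the large iron-sulfur subunit of the complex I electron input module, was higher in Stra8 IP by 0.89 ± 0.05 (adjusted p = 3.52e-23). Ndufv1, the NADH-binding subunit, was higher by 0.78 ± 0.03, from 11.62 to 12.18 in IP against 10.84 to 11.54 in total RNA. Uqcrc1, a core subunit of complex III, was higher by 0.57 ± 0.04, from 12.05 to 12.42 against 11.38 to 11.96. Ndufv1 and Uqcrc1 were the 2 members whose IP and total arrays did not overlap at all (both were named after their values were seen). The share of all genes without overlap is not given here, so this count has no background to be set against. All 4 succinate dehydrogenase genes were higher too, Sdha by 0.51 ± 0.02, Sdhb by 0.54 ± 0.05, Sdhc by 0.27 ± 0.03 and Sdhd by 0.13 ± 0.04. Of the 33 complex I genes 22 were higher and 9 lower, and of the 19 complex IV genes 8 were higher and 5 lower.

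The Ngn3 line, a different Cre on a different strain, gave a like pattern on separate arrays. Across the 81 genes IP minus total correlated between the Stra8 and Ngn3 lines with r = 0.94, and 67 of 81 had the same sign (a description across genes, which are not independent). The called members were again Cox7b2 (1.07 ± 0.13) and Cox7a1 (-1.18 ± 0.11), 2 of 81 against 12.9% of all genes, and Ndufs1 followed at 0.99 ± 0.10. Cox7b2 was at 8.38 and 8.57 in Ngn3 IP at time 0 and at 7.45 and 7.39 in total RNA. With quantile normalization its difference was 0.98, just short of 2-fold. In all 26 members were higher and 28 lower past the test, against 55.7% of all genes past it, with medians of 0.01 over members and 0.05 over all genes.

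In the Amh line IP minus total RNA had a median of 0.12 over the members and of 0.12 over all genes. Past the test 44 members were higher and 15 lower, against 74.1% of all genes, and 1 was called against 5.04%. That member was Cox7b2, lower by -1.12 ± 0.07 (adjusted p = 2.66e-19). Its IP arrays lay between 6.59 and 7.1 (n = 16) and its total arrays between 7.28 and 9.11 (n = 14), without overlap. Ndufb2, a small accessory subunit of complex I, was higher in IP by 0.90 ± 0.05, and Cox7a1 by 0.78 ± 0.06. The Rieske iron-sulfur protein of complex III, Uqcrfs1, was higher by 0.70 ± 0.05 and Cox5a, a nuclear-encoded complex IV subunit, by 0.43 ± 0.04. Ndufb2, Uqcrfs1, Cox5a and Cox7b2 were the 4 members with no overlap between IP and total arrays (Uqcrfs1 and Cox5a were named after their values were seen). For this count too the share of all genes is not given. The scale matters here, since centring each array on its median raised every Amh IP minus total value by 0.14, which took Cox7b2 to -0.98 and off the 2-fold line. Without the arrays labelled 4h and 4d, 60 members passed the test, 1 was called and Cox7b2 was at -1.20. Centred, the median was 0.26 over the members and 0.25 over all genes.

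**Figure D2:**
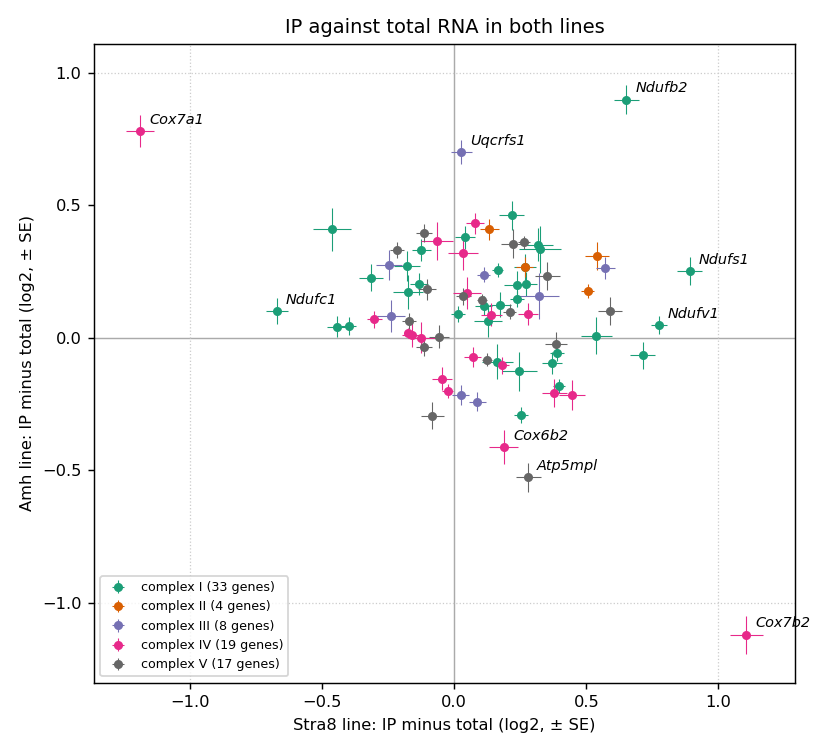
IP minus total RNA for each of the 81 genes in the Stra8 line (horizontal) and the Amh line (vertical), log2 with SE bars, coloured by complex, with dotted lines at 2-fold. Cox7b2 (1.11 and -1.12) and Cox7a1 (-1.19 and 0.78) stand at opposite corners, and 76 of the 81 genes lie within 0.5 of 0 on the Amh axis.

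Set directly against each other, germ cell and Sertoli cell polysomes differed at least 2-fold in 2 complex IV isoforms. The median over members of Stra8 IP minus Amh IP was -0.02, the same as over all genes, with 32 members higher and 30 lower past the test (66.5% of all genes) and 2 called (16.8% of all genes). By complex the medians were -0.04 in I, 0.18 in II, -0.08 in III, 0.10 in IV and 0 in V. With Amh arrays of the labelled 4h and 4d left out, 58 passed and 2 were called, Cox7b2 at 2.19 and Cox7a1 at -2.15. Cox7b2 was higher in Stra8 IP by 2.12 ± 0.07 (4.35-fold, adjusted p = 1.11e-32) and Cox7a1 higher in Amh IP by 2.07 ± 0.06 on the log2 scale (4.21-fold, adjusted p = 2.43e-35). Cox7a1 ran from 8.86 to 9.5 in Stra8 IP and from 10.41 to 12.41 in Amh IP, with no overlap. Ndufa1, a small membrane-arm subunit of complex I, was lower in Stra8 IP by -0.93 ± 0.08 as a mean over all times, although its courses in the cell types differ (given below).

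Paralog by paralog, the testis forms were on the germ cell side. Besides Cox7b2, Cox6b2 was higher in Stra8 IP than in Amh IP by 0.77 ± 0.06 and Cox8c by 0.72 ± 0.05, as means over all times. At time 0 Cox6b2 was alike in both, with means of 9.11 in Stra8 IP and 9.09 in Amh IP, and its courses then parted (given below). The widely expressed partners of the testis forms differed less. Cox6b1 differed by 0.10 ± 0.04, with the sign turned on centring (-0.002). Cox8a differed by 0.14 ± 0.02, and Cox7b by -0.31 ± 0.03, that is higher in Sertoli cell RNA. Of the muscle forms Cox7a1 stood alone, since Cox6a2 differed by -0.20 ± 0.07 (-0.14, no longer past the test, with Amh 4h and 4d left out) and Cox8b, whose mean of 7.29 was the lowest of all members, by -0.11 ± 0.06 without passing the test. Cox4i1, the common form of subunit 4, was higher in Stra8 IP by 0.63 ± 0.05, and Cox4i2, its hypoxia-responsive paralog, differed by -0.09 ± 0.04 without passing. For the ATP synthase c subunit, Atp5g3 was lower in Stra8 IP by -0.41 ± 0.03 and Atp5g2 by -0.08 ± 0.03 (0.10 with quantile normalization, and -0.07, not past the test, with Amh 4h and 4d left out), while Atp5g1 differed by 0.03 ± 0.03. These genes encode the same mature protein. Atp5g1 and Atp5g2 have further probe sets whose arrays correlated with those used at 0.974 to 0.994.

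Ngn3 IP against Stra8 IP at 0 and 4h compares the germ cell lines with each other. No member was called, and few genes were at all, with 11 of all genes called higher and 27 lower. Past the test 5 were higher and 6 lower, against 13% of all genes, and the number was 6 without Stra8 IP 0 replicate 2 or without Stra8 IP 4h replicate 1. Ndufb7 was higher in Ngn3 IP by 0.47 ± 0.10, Cox7b2 lower by -0.46 ± 0.13 and Atp5o higher by 0.44 ± 0.10. Total RNA of the Stra8 and Amh lines, which samples the same tissue, differed little in size, with the largest difference in Uqcr11 at -0.33 ± 0.08. No member was called there, where 4 of all genes were called higher and 2 lower. Past the test 12 members were higher and 10 lower (18% of all genes).

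Promoters are shown for the testis forms Cox7b2 and Cox6b2 beside those of their partners Cox7b and Cox6b1, to show how far the upstream sequences of paralogs differ. Those of Cox7a1 and Ndufa1 are shown for their differences between the cell types, without a partner. Each line gives 250 bases before to 50 bases after the annotated start, from RefSeq on GRCm38.p6, read 5′ to 3′ on the gene's strand. Capitals mark 4 motifs searched on both strands. The first is the core of the nuclear respiratory factor NRF1 site, GCATGCGC. The second is the ETS site to which GABPA can bind, spelled CCGGAAG. The other two are the GC box, searched with the letters GGGCGG, and the TATA box, searched for in its short form with the letters TATAAA. Cox7b2 lies at chr5:71548156-71548455 (minus strand), Cox7b at chrX:106015450-106015749 (plus), Cox6b2 at chr7:4753045-4753344 (minus) and Cox6b1 at chr7:30626065-30626364 (minus). Cox7a1 lies at chr7:30183921-30184220 (plus) and Ndufa1 at chrX:37191189-37191488 (minus).
Cox7b2: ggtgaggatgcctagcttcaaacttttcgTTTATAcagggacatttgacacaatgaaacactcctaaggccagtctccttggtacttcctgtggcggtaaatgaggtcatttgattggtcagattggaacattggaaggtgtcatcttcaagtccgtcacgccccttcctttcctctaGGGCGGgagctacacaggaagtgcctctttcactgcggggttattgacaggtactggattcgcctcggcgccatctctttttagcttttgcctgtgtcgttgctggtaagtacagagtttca
Cox7b: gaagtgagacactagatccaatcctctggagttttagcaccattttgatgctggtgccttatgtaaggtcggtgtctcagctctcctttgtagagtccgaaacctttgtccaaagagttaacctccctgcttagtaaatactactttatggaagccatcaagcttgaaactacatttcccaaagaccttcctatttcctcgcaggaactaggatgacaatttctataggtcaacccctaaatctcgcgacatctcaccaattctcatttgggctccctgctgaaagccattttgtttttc
Cox6b2: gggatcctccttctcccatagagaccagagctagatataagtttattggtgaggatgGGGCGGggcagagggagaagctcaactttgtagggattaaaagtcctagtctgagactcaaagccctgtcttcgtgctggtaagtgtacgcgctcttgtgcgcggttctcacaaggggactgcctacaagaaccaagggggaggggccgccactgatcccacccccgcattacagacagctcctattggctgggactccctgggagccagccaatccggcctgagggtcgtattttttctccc
Cox6b1: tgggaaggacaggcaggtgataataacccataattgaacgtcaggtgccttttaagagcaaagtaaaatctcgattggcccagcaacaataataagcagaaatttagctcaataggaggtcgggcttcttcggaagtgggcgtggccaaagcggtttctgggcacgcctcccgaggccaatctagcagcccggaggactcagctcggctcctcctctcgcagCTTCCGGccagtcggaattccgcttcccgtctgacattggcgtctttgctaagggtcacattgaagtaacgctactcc
Cox7a1: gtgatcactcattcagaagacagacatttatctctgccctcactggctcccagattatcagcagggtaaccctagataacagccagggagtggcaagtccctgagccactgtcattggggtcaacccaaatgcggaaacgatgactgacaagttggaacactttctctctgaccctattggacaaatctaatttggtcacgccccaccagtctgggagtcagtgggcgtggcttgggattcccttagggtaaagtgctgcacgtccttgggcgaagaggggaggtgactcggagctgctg
Ndufa1: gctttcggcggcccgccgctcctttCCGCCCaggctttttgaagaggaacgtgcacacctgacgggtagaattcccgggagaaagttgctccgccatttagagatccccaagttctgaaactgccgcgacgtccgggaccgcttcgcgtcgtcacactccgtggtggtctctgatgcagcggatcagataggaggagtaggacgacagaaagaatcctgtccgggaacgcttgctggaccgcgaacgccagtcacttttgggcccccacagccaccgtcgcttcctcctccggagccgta

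These windows share little. The ETS motif is in Cox6b1 and in none of the other 5, and the GC box is in Cox7b2, Cox6b2 and Ndufa1. The letters of the TATA box are in Cox7b2 alone. There they lie on the opposite strand (TTTATA), near the end of the window farthest from the start. Cox7b and Cox7a1 hold no match to any of the 4. Windows were found for 66 of the 81 members, 71 windows in all, 5 genes having 2. The NRF1 core was in 10 of the 71 (14.1%, against 2.7% of all 32851 windows) and the ETS motif in 17 (23.9%, against 8.9%). The GC box was in 28 (39.4%, against 35.7%) and the TATA box in 9 (12.7%, against 13.6%). In 1 window matches of different motifs overlapped. A match is a stretch of letters and not a measured site, and 300 bases on each gene say nothing of elements outside them.

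In germ cells the members changed late. At 4h after RA no member passed the test in Stra8 IP (limma, 3 of 81 at an unadjusted p under 0.05; 1.65% of all genes passed) or in Ngn3 IP (8 of 81 unadjusted; 2.06% of all genes). At 12h 0 passed (limma, 6 unadjusted; 4.59% of all genes), and at 24h Cox7b and Ndufs4 were lower, the 2 that passed (6.47% of all genes). At 48h 15 were higher and 1 lower (11.9% of all genes past the test), with a median of 0.14. That count rests on single arrays, since it was 1 without Stra8 IP 0 replicate 2, 4 without Stra8 IP 48h replicate 2 and 9 without Stra8 IP 48h replicate 1. At 4d 28 were higher and 6 lower (22.3% of all genes), and Atp5k and Ndufa1 were called, 2 of 81 against 1.95% of all genes. Markers of some other cell types were higher at 4d too, with 5 of 8 Sertoli markers (median 0.59) and 3 of 5 macrophage markers (median 0.60) past the test. Of the peritubular myoid (median 0.28), Leydig (0.02), adipocyte (-0.05), striated muscle (-0.13) and erythroid (-0.37) markers 0 passed. Of 5 endothelial markers (-0.25) 1 was lower. Of the 8 germ cell markers 0 were higher and 3 lower (median -0.22). At 6d 0 of these 8 were higher and 3 lower (median -0.27), and at 8d 1 was higher and 4 lower (median -0.5). The part of other cell types in the members' change was not tested.

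The broadest rise in germ cell polysomes came at 6d. Past the test 39 members were higher and 5 lower, against 33.4% of all genes past it in either direction, with a median of 0.29 against -0.05 over all genes. By complex the medians were 0.35 in complex I, 0.45 in II, 0.50 in III, 0.10 in IV and 0.29 in V, so complex IV moved least. At least 2-fold were 5 members, all higher (5 of 81; 5.98% of all genes were called). Ndufa1 rose by 1.90 ± 0.22, Ndufb5, an accessory subunit of complex I, by 1.11 ± 0.15, Atp5pb, the stator b subunit of ATP synthase, by 1.07 ± 0.13, Ndufs1 by 1.02 ± 0.14 and Ndufs5 by 1.01 ± 0.24. The number called was 2 without Stra8 IP 0 replicate 2 or without Stra8 IP 6d replicate 1, and 8 without Stra8 IP 6d replicate 2. On those 6d arrays the members' means were 11.11 and 10.93. The 8d means, given above, lay at the level of the lower of these, and 8d was not tested against 6d.

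Single arrays show how sharp the 6d step was. Ndufs1 stood at 10.82 and 10.61 at time 0, between 10.54 and 11.1 at every later time up to 4d, at 11.78 and 11.7 at 6d, and at 11.0 and 11.09 at 8d. Ndufb5 went from 10.71 and 10.6 to 11.84 and 11.69 at 6d and was at 10.89 and 11.03 at 8d. Both genes were thus higher at 6d than at any other time on every array, with no overlap. Atp5pb climbed over a longer stretch, from 11.31 and 11.14 at 0 through 11.6 and 11.76 at 48h and 11.82 and 12.07 at 4d to 12.4 and 12.19 at 6d, and was at 11.86 and 11.91 at 8d. A second Atp5pb probe set, not used, correlated with it over arrays at 0.877, so the set used may report a near-identical copy. The Sertoli markers in Stra8 IP averaged 9.56 and 10.1 at 0, 10.97 and 9.91 at 4d, 8.74 and 9.04 at 6d and 9.12 and 9.19 at 8d. The mean of this list was therefore lower at 6d and 8d than at 0, and 7 of its 8 genes fell at 6d. Whether carry-over changed was not tested.

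Set against time 0, fewer members were higher at 8d than at the time before. These later times were not tested against each other. Past the test 28 members were higher and 9 lower (34.3% of all genes past it), the median was 0.16 against 0 over all genes, and 3 were called against 7.39% of all genes. They were Ndufa1 (2.73 ± 0.22, adjusted p = 1.15e-14), Cox8c (1.42 ± 0.14, adjusted p = 7.29e-12) and Cox6b2 (1.28 ± 0.17, adjusted p = 1.15e-08), so both complex IV genes among them were testis forms. The third testis form, Cox7b2, rose by 0.81 ± 0.19.

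Ndufa1 climbed at every step of its group means. Its Stra8 IP arrays read 7.5 and 7.48 at 0, 7.68 and 7.37 at 4h and 7.75 and 7.81 by 12h. At 24h they read 8.03 and 8.01, by 48h 8.15 and 8.13, and they went on to 8.64 and 8.58 at 4d, 9.96 and 8.82 at 6d and 10.43 and 10.0 at 8d, with a wide gap between the arrays only at 6d. In Amh IP the same probe set read 9.23 and 9.17 at 0 and 8.86 and 8.88 at 8d, and never left the range from 8.86 to 9.75. Germ cells thus began below and ended above Sertoli cells, with no overlap at either end. The Ndufa1 locus on the X chromosome overlaps Rnf113a1 in RefSeq, so its signal is uncertain to that extent. The probe sets of the other X-linked members did not rise with it, as that of Cox7b fell by 0.74 on the log2 scale at 8d (SE 0.09) and that of Ndufb11 did not pass the test. Both genes have a second probe set, so the ones used may report a near-identical copy elsewhere; with both probe sets averaged Cox7b stood at -0.76.

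Cox8c, the testis form of subunit 8, stayed near its starting level for 4 days and then rose. It was at 8.35 and 8.31 at 0, between 8.05 and 8.61 up to 4d, at 8.65 and 8.9 at 6d and at 9.94 and 9.55 at 8d in Stra8 IP. Total RNA of the Stra8 line followed, from 7.86, 8.1, 8.06 and 7.86 at 0 to 9.6 and 9.02 at 8d (1.34 ± 0.12). In Amh IP all 16 arrays lay between 7.69 and 8.22.

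Cox6b2, the testis form of subunit 6b, moved in steps. In Stra8 IP it was at 9.13 and 9.08 at 0, at 8.94 and 8.93 at 48h, at 9.86 and 9.87 at 4d, at 9.39 and 9.2 at 6d and at 10.38 and 10.4 at 8d. Replicates differed far less than the times did. Cox7b2 stood at 8.77 and 8.53 at 0, dipped to 8.17 and 8.48 at 4d, and was at 9.79 and 8.94 at 6d and 9.49 and 9.43 at 8d. In total RNA Cox7b2 at 8d reached 8.8 and 8.43 in the Stra8 line and 9.11 and 8.48 in the Amh line, above all 6 arrays of time 0 (7.46 to 7.93), whereas Amh IP stayed at 6.93 and 6.88.

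**Figure D3:**
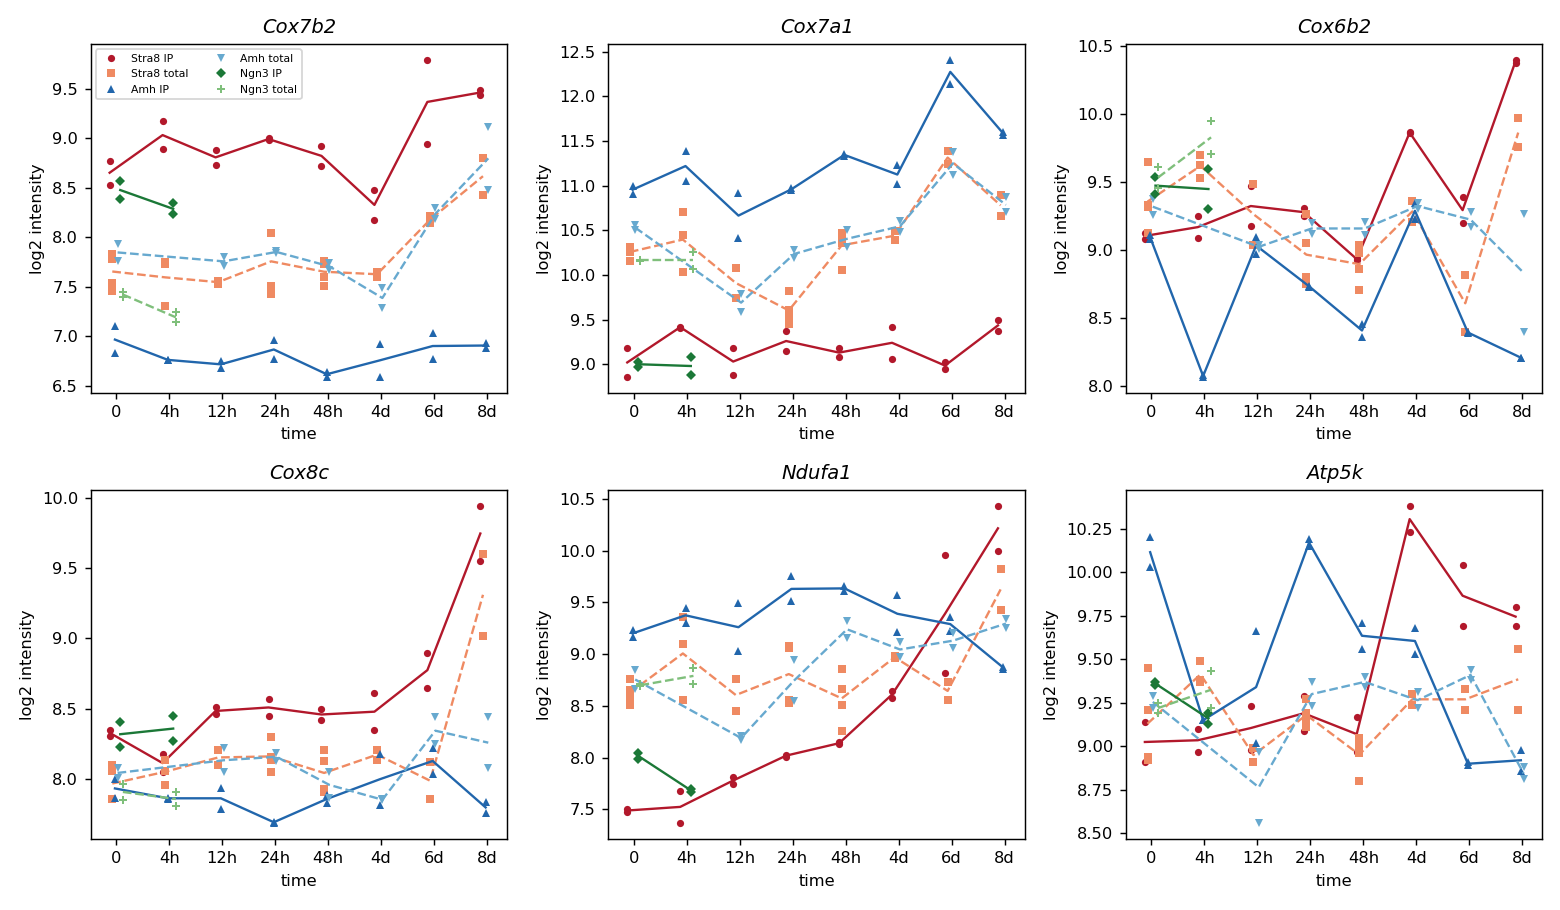
Log2 intensity on each array for 6 members against time after RA, with lines through group means; times are spaced evenly and vertical scales differ between panels. Ndufa1 and Cox8c in Stra8 IP end at 10.43 and 10.0 and at 9.94 and 9.55, above every Amh IP array, and Cox7a1 in Amh IP peaks at 12.14 and 12.41 at 6d.

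Some members went the other way in germ cells. Cox7b fell from 12.15 and 12.28 at 0 to 11.53 and 11.42 at 6d and 11.39 and 11.57 at 8d, the opposite of its testis paralog Cox7b2. A second Cox7b probe set, not used, correlated with it over arrays at 0.936. Cox8a, the common partner of Cox8c, fell by 0.89 on the log2 scale at 6d (SE 0.07), from 12.02 and 11.96 to 11.14 and 11.06, and was back at 11.89 and 11.85 at 8d. Atp5g1 fell by 0.52 (SE 0.08) at 8d, Uqcrb, the ubiquinone-binding subunit of complex III, by 0.49 (SE 0.10) and Ndufv3, the small flavoprotein subunit of complex I, by 0.57 (SE 0.14). Cox6b1, the partner of Cox6b2, differed by -0.08 ± 0.11 at 8d without passing the test.

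Over the whole Stra8 IP course (moderated F test of any change) 67 of 81 members passed, against 57.8% of all genes. At least 2-fold at some time were 8, against 10.8% of all genes, all of them higher: Ndufa1, Cox8c, Cox6b2, Atp5k, Ndufb5, Atp5pb, Ndufs1 and Ndufs5. The number was 5 without Stra8 IP 0 replicate 2 or without Stra8 IP 6d replicate 1. Atp5k, the small e subunit of ATP synthase, peaked at 4d, with arrays at 9.14 and 8.91 at 0, 10.23 and 10.38 at 4d and 9.69 and 9.8 at 8d.

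**Figure D4:**
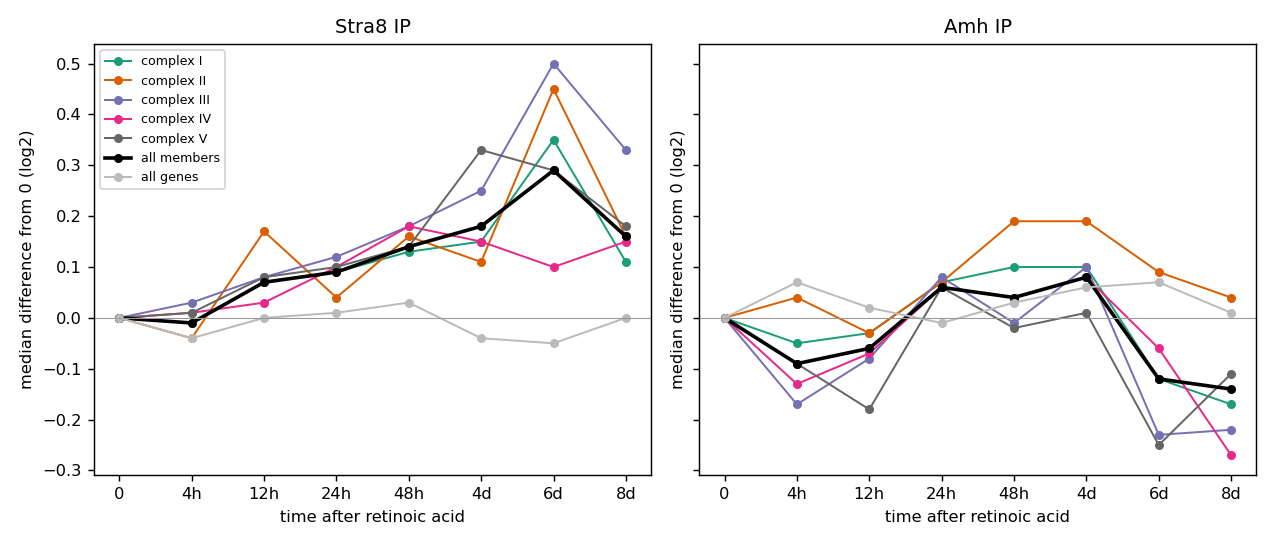
Median log2 difference from time 0 over the genes of each complex, over all members (black) and over all genes tested (grey), in Stra8 IP (left) and Amh IP (right), times spaced evenly. In Stra8 IP the median over members reaches 0.29 at 6d and is 0.16 at 8d, and in Amh IP it is -0.12 and -0.14.

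In Sertoli cells the late change was downward, and some members were lower earlier. At 12h in Amh IP 2 members were higher and 9 lower past the test (1207 and 1164 of all genes), with a median of -0.06. Atp5k stood at -0.773 ± 0.146 and Ndufb2 at -0.755 ± 0.141 there. At 24h 0 passed (87 and 255 of all genes). At 48h 4 were higher and 5 lower (805 and 1011 of all genes), with Cox6b2 at -0.683 ± 0.167. At 6d in Amh IP 5 members were higher and 20 lower past the test (23.1% of all genes), with a median of -0.12, and 3 were called against 3.41% of all genes. At 8d 14 were higher and 28 lower (28.1% of all genes past the test), with a median of -0.14 against 0.01 over all genes, and 1 was called against 5.63%. The count of 42 past the test was 27 without Amh IP 0 replicate 2 or without Amh IP 8d replicate 2. Without Amh IP 0 replicate 1 the number called was 3, and without Amh IP 8d replicate 2 it was 2. The medians at 8d were -0.17 in complex I, 0.04 in II, -0.22 in III, -0.27 in IV and -0.11 in V.

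Atp5k fell most, by 1.20 on the log2 scale at 8d (SE 0.15, adjusted p = 3.68e-09), from 10.03 and 10.2 at 0 to 8.86 and 8.98. Ndufc2, a complex I accessory subunit, fell by 0.99 (SE 0.08), from 13.08 and 13.14 to 12.11 and 12.12. Ndufb2 fell by 0.97 (SE 0.14) at 8d and by 1.19 at 6d. Cox6b2 fell by 0.89 (SE 0.17), from 9.11 and 9.08 to 8.21 on both arrays. Each of these had no overlap between 0 and 8d. The same held for 72 of the 81 members, so it does not set these genes apart. Among those that rose at 8d were Cox7a1 by 0.63 ± 0.16, Ndufv3 by 0.58 ± 0.14, Uqcrc2, a core subunit of complex III, by 0.38 ± 0.07, and Sdha by 0.20 ± 0.07. Germ cell markers in Amh IP averaged 8.55 and 8.73 at 0 and 9.24 and 9.06 at 8d. Whether carry-over differed between these times was not tested.

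Cox7a1 had a course of its own in Sertoli cells. It read 10.91 and 11.0 at 0, 10.41 and 10.92 at 12h, 11.33 and 11.36 at 48h, 12.14 and 12.41 at 6d and 11.57 and 11.6 at 8d. The 6d arrays lie above all others, and the rise at 6d was 1.32 ± 0.16 (adjusted p = 8.5e-09). Total RNA of the Stra8 line rose at 6d too, by 1.06 ± 0.14. That rise was 0.98 without Stra8 total 6d replicate 1, 0.99 with median centring and 0.99 with quantile normalization. Stra8 IP at 6d stood at 8.95 and 9.02 against 9.18 and 8.86 at 0. In Amh total at 6d 0 members were called, and the largest rise of any member was 0.72.

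Over the Amh IP course 68 of 81 members passed the F test (53.3% of all genes) and 4 were called (7.62% of all genes), Cox7a1 higher and Atp5k, Ndufb2 and Cox6b2 lower. Without the arrays labelled 4h and 4d 58 passed and 3 were called. Cox6b2 was the one that dropped out, because its largest difference, -1.02 ± 0.17, was at the time labelled 4h (8.07 and 8.08); without those arrays it was 0.89 in size. At the labelled 4h itself 4 members were higher and 13 lower past the test (15.3% of all genes).

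The change from 0 to 8d was then compared between the lines, as the difference of differences in the same model. Of the 81 members 37 had a change more upward in Stra8 IP than in Amh IP and 8 a change more downward past the test, against 30.4% of all genes. The median was 0.34 against 0.01 over all genes. At least 2-fold were 12 members (11.1% of all genes), 11 of them upward in Stra8 IP relative to Amh IP. Ndufa1 led with 3.06 ± 0.31 (adjusted p = 3.2e-11), then Cox6b2 with 2.17 ± 0.24 (adjusted p = 2.53e-10), Atp5k with 1.91 ± 0.21 and Cox8c with 1.55 ± 0.20. Ndufv3 was the 1 called downward, with -1.15 ± 0.19. By complex the medians were 0.22 in I, 0.07 in II, 0.44 in III, 0.34 in IV and 0.44 in V.

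The difference was made up in unequal ways. For Ndufa1 and Cox8c it lay mostly in the germ cell change, as their 8d changes in Amh IP were -0.33 ± 0.22 and -0.14 ± 0.14 without passing the test. For Cox6b2 and Atp5k both lines changed, in opposite directions, Atp5k by 0.71 ± 0.15 in Stra8 IP and -1.20 ± 0.15 in Amh IP. For Ndufb2 the change in Amh IP was the larger. Genes of cytosolic ribosomal proteins, another set of abundant transcripts, had a median of 0.33 in the same comparison, with 29 of 56 upward and 2 downward past the test. There the shift lay on the Sertoli side, as 43 of 56 fell in Amh IP at 8d (median -0.46) while the median in Stra8 IP was -0.09. Mitochondrial ribosomal protein genes had a median of 0.08, with 16 of 77 upward and 4 downward. Whether a general change in the Amh IP libraries at 8d takes part in the members' difference was not tested.

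**Figure D5:**
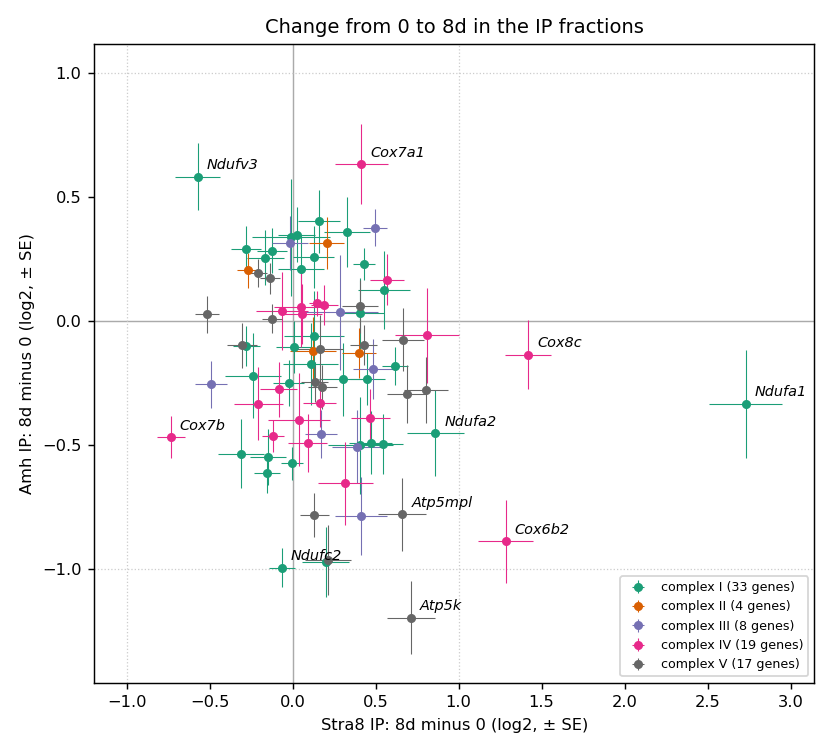
Change from 0 to 8d of each of the 81 genes in Stra8 IP (horizontal) and Amh IP (vertical), log2 with SE bars, coloured by complex. Ndufa1 (2.73), Cox8c (1.42) and Cox6b2 (1.28) lie past 2-fold in Stra8 IP, and Atp5k (-1.20) is the gene past 2-fold in Amh IP.

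Total RNA of the lines was compared with time 0 in the same way. At 4h in Stra8 total 18 members were higher and 0 lower past the test (1138 and 2176 of all genes), with a median of 0.11. The members' median differed by up to 0.58 among those 3 arrays at 4h. In Stra8 total 17 members were higher and 9 lower at 8d (33.4% of all genes past the test), and Cox8c alone was called (4.86% of all genes). In Amh total 12 were higher and 25 lower at 8d (32.2% of all genes), with a median of -0.08 against 0 over all genes, and 33 of 56 cytosolic ribosomal protein genes were lower (median -0.31). A majority of lower members at 8d was thus seen in whole testis RNA of the Amh line as well as in its IP RNA. The count of 26 was 14 without Stra8 total 8d replicate 1. The number called was 3 without Stra8 total 0 replicate 1 or without Stra8 total 8d replicate 2, and 2 without Stra8 total 0 replicate 2 or without Stra8 total 0 replicate 4. Over the whole course 67 members passed in Stra8 total (65.9% of all genes) and 67 in Amh total (54.4% of all genes). Called were Cox8c and Cox7a1 in Stra8 total (6.9% of all genes) and none in Amh total (7.66% of all genes), where 2 were called without Amh total 8d replicate 2 and 1 each without Amh total 0 replicate 2, 48h replicate 2 or 4d replicate 1. In Stra8 total 5 were called without 0 replicate 1, 4 without 8d replicate 2 and 1 without 6d replicate 1. In Amh total the largest difference was the rise of Cox7b2 by 0.95 ± 0.19 at 8d.

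Lists of other mitochondrial genes were counted in Stra8 IP at 6d, where 3689 of all genes were higher and 2979 lower past the test (33.4%) and the median was -0.05. Of 44 assembly factors, which build the complexes and are not part of them, 26 were higher and 2 lower (median 0.43). Of 18 citric acid cycle genes 11 were higher and 3 lower (median 0.38), of 77 mitochondrial ribosomal protein genes 38 and 1 (median 0.31), of 15 genes for mitochondrial DNA upkeep and transcription 6 and 0 (median 0.26), and of 14 electron and nucleotide carriers 7 and 4 (median 0.26). Regulators of mitochondrial biogenesis had 5 of 13 higher and 3 lower (median 0.27). Cytosolic ribosomal protein genes had 7 of 56 higher and 9 lower (median -0.02). At 8d the median of the assembly factors was 0.32 and that of the citric acid cycle genes 0.09. In Amh IP at 8d the assembly factors had 4 higher and 6 lower (median 0.12) and the citric acid cycle genes 7 higher and 1 lower (median 0.18), so these lists did not share the members' negative median of -0.14 there.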

How the data were processed

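The authors deposited linear intensities of gene-level Affymetrix arrays, summarised by RMA per the submitters' processing notes (version and settings not stated there). Array medians were 252.6 to 300.5 and minima 25.1 to 26.3, so low signals are compressed and their differences understated. Per the labels' protocols, RNA was purified with RNeasy columns and amplified with the Ovation V2 kit before Encore biotin labelling. The deposited intensities were converted to log2 and not rescaled. Of 28853 probe sets, 5443 not listed with a gene and 1621 listed with several were left out; where a gene had more than 1 (999 genes, 16 members), the one with the highest mean over all arrays was used. Other probe sets of those members correlated with it over arrays at 0.532 (Cox7a2l) to 0.994, and near-identical copies of a gene cannot be told apart. Levels of different probe sets are not comparable with each other.

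One limma 3.58.1 model (R 4.3.3, data.table at 1.17.8; plots with matplotlib 3.10.9) gave each of the 35 groups its own mean, moderated with eBayes (trend over intensity); p-values were two-sided and adjusted by Benjamini-Hochberg over 19938 genes. Called means an adjusted p under 0.05 and at least 2-fold. IP against total and line against line are means over the times present in both. A value for a course is the largest difference from 0 at any time. The fit was tested on simulated data. Nothing in the labels says that replicates are separate animals, so the p-values reflect variation among these samples only, which may be technical; the number of arrays limits precision. Arrays of a group correlated with r from 0.958 to 0.999.

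The members, gene lists and tests were chosen with earlier results of these data known. Named genes are the 4 called members with the largest difference in each direction (the 3 largest where fewer than 3 were called) and the paralog families; others are said to be named after their values were seen, and Ndufb5, Ndufs5, Uqcrb and Uqcrc2 are too. Replicate numbers were checked as pairs by the correlation of replicate differences. In the Amh line all 7 IP and total pairs passed 0.1 (0.114 to 0.585), so their replicate differences ran alike, which does not show that they share animals. In the Stra8 line 4 of 8 did (-0.27 to 0.24), and times were not paired. The main model does not use replicate numbers, and a fit with them as a block is given below.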

Additional observations from a re-analysis of the deposited data

Results flagged for a closer look

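A test of the difference between lines flagged 12 of the 81 members, where 11.1% of all genes were called. In these members the change from 0 to 8d in Stra8 IP was unlike that in Amh IP by at least 2-fold. Upward in Stra8 IP relative to Amh IP (log2) were Ndufa1 (3.06), Cox6b2 (2.17), Atp5k (1.91), Cox8c (1.55), Atp5mpl (1.44), Ndufa2 (1.31), Uqcr10 (1.20), Atp5l (1.18), Ndufb2 (1.17), Atp5e (1.08) and Ndufa5 (1.04). Ndufv3 was the one downward (-1.15). Among the 3 Stra8 total groups of 4 arrays, no array stood far from the others for the members' mean or for any of 13 members looked at (42 groups of values, of which chance flags about 1 in 20). Groups of 2 or 3 arrays were outside this check. The widest range of the members' median was in 1 of them, Stra8 total 4h, at 0.58, and the range was 0.38 in Stra8 total 24h.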

How the results depend on the processing

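Leaving out the 2-fold minimum raised the number of members called to 68 in Stra8 IP against total, 54 in Ngn3, 59 in Amh, 62 between Stra8 and Amh IP, 22 between their total RNA and 11 between Ngn3 and Stra8 IP. It gave 67, 68, 67 and 67 over the courses of Stra8 IP, Amh IP, Stra8 total and Amh total. Against 0 it gave 37 in Stra8 IP, 42 in Amh IP and 26 in Stra8 total at 8d, 45 for the difference between lines, 16, 34 and 44 in Stra8 IP at 48h, 4d and 6d, and 25 in Amh IP at 6d. Quantile normalization called 1 member in Ngn3 IP against total, 2 in Amh IP and 2 in Stra8 total at 8d and 4 in Stra8 IP at 4d, and 1 passed the test in Ngn3 IP at 4h; median centring called 1 over the Stra8 total course. Medians over members moved to 0.26 (centring) and -0.05 (quantile) in Amh IP against total and to 0.10 (quantile) between Stra8 and Amh IP. Directions turned for Cox6b1 between Stra8 and Amh IP (-0.002, centring), Atp5g2 there (0.096, quantile), and, in Amh IP against total with quantile normalization, Cox6b1 (-0.14), Cox7b (-0.17), Atp5g1 (-0.13) and Sdha (-0.072). With the compared groups alone 23 members passed between Ngn3 and Stra8 IP, 42 over the Stra8 total course and 1 in Stra8 IP at 4h. Without the lowest 30% of genes (1 member among them) 1 passed in Ngn3 IP at 4h. The cause of these shifts was not tested. The replicate number as a block left every count within 1.5 times (66 members past the test in Amh IP against total, 68 in Stra8), and 4 single values, in total RNA, no longer passed. Leaving out 1 array at a time, calls ranged from 2 to 8 in Stra8 IP at 6d, 5 to 10 over its course, 1 to 3 in Amh IP and in Stra8 total at 8d, 1 to 5 over the Stra8 total course and 0 to 2 over the Amh total course. Members past the test ranged from 1 to 11 in Stra8 IP at 48h, 27 to 30 in Amh IP at 8d, 14 to 25 in Stra8 total at 8d, 6 to 11 between Ngn3 and Stra8 IP and 0 to 2 in Ngn3 IP at 4h. The alternatives for 48h, 4d and 6d, and counts past the test, were added after seeing the data.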

Other observations

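Members outside the paralog pairs also differed between the cell types. Ndufa9, a complex I subunit outside the catalytic core, was higher in Stra8 IP than in Amh IP by 0.68 ± 0.05 with no overlap between 16 and 16 arrays (11.35 to 12.0 against 10.78 to 11.23), and Ndufb9 by 0.53 ± 0.03 (11.84 to 12.23 against 11.13 to 11.83). Uqcrfs1 was lower by -0.69 ± 0.04 and Ndufc1 by -0.69 ± 0.05. These genes were chosen after their values were seen.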
